A study of Mus musculus with 2 samples.

Results

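Z-disc and costamere muscle proteins were followed here through 10 genes, namely Actn2, Actn3, Myot, Myoz1, Myoz2, Ldb3, Tcap, Csrp3, Smpx and Klhl41. The members are the probe sets whose only gene symbol is one of these names, which gave 1 probe set for each gene, 10 of the 21789 probe sets with 1 symbol on the array. The genes lie on 9 chromosomes, with only Myoz1 and Ldb3 on the same one. The genes were selected on their log2 differences between these 2 arrays as well as on their place in muscle, so every value of them is a description, and no test of them was made. The MLL1 KO sample was a culture of mouse myoblasts of the genotype Rosa-CreER / MLL1 fl/fl exposed for 7 days to 500 nM 4-hydroxytamoxifen (4-OHT) in 0.01% ethanol, and the control was the same line grown for 7 days with 0.01% ethanol alone. Per the labels, both then had 3 days without drug or vehicle, whereas the methods give a shorter washout. Both cultures carried the floxed Mll1 alleles and the Cre recombinase, which is expressed from the ubiquitous Rosa26 locus and enters the nucleus only with 4-OHT. The line was made from hind limb muscle of young mice by selection with an α7-integrin antibody after removal of blood, endothelial and SCA1-positive cells. Deletion of Mll1, 4-OHT itself and active Cre therefore coincide in the MLL1 KO culture and cannot be told apart. Each condition was measured once, on 1 Affymetrix MoGene 1.0 ST array, whose probes are spread along the transcript and summarised as 1 log2 signal per probe set. No difference has a replicate check, and the precision is limited by there being 1 array per condition.

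The Z-disc is the lattice at each end of the sarcomere, where α-actinin cross-links the actin filaments of neighbouring sarcomeres and the ends of titin are anchored. The costamere lies beside it under the cell membrane and ties the outermost Z-discs to integrins and the extracellular matrix. Proliferating myoblasts hold few such structures, and they are built when the cells leave the cell cycle and fuse into myotubes. In RNA of a whole culture, more cells that express a gene and more RNA of it per cell cannot be told apart.

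The members were mostly higher in the MLL1 KO array, by amounts on either side of the 2-fold cut-off of the study's methods. Tcap was lower and the other 9 members were higher, and 4 of the 10 exceeded 2-fold, each upwards. Among all probe sets with 1 symbol, 1.18% exceeded 2-fold upwards and 0.101% downwards, while 41.2% were higher and 56% lower by any amount. The same contrast was in view when the members were chosen, so nothing is read from the distance between their count and these shares. Smpx (probe set 10602756), Klhl41 (10472562), Myot (10455461) and Actn2 (10407742) passed the cut-off, and Myoz2, Csrp3 and Ldb3 were between 1.5-fold and 2-fold higher. At 1.5-fold, 7 members passed upwards and none downwards, beside 4.85% and 2.03% of the named probe sets, and at 3-fold only Smpx did, beside 0.207% upwards and 0.0229% downwards. The members nearest the cut-off were Actn2 inside it, at 2.07-fold, and Myoz2 outside it, at 1.77-fold. The median log2 difference, MLL1 KO minus control, was 0.75 over the 10 members and -0.05 over the 19938 genes with 1 symbol. The members' log2 signals lay between 4.76 and 8.95 in the MLL1 KO array and between 4.36 and 8.52 in the control array. The study set a signal of 7 as its lower limit for tabulating decreased genes, and 5 of the 10 members exceeded it in the higher array. Smpx and Ldb3 exceeded it only in the MLL1 KO array, so nothing is read from a count over these 5.

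**Figure D1:**
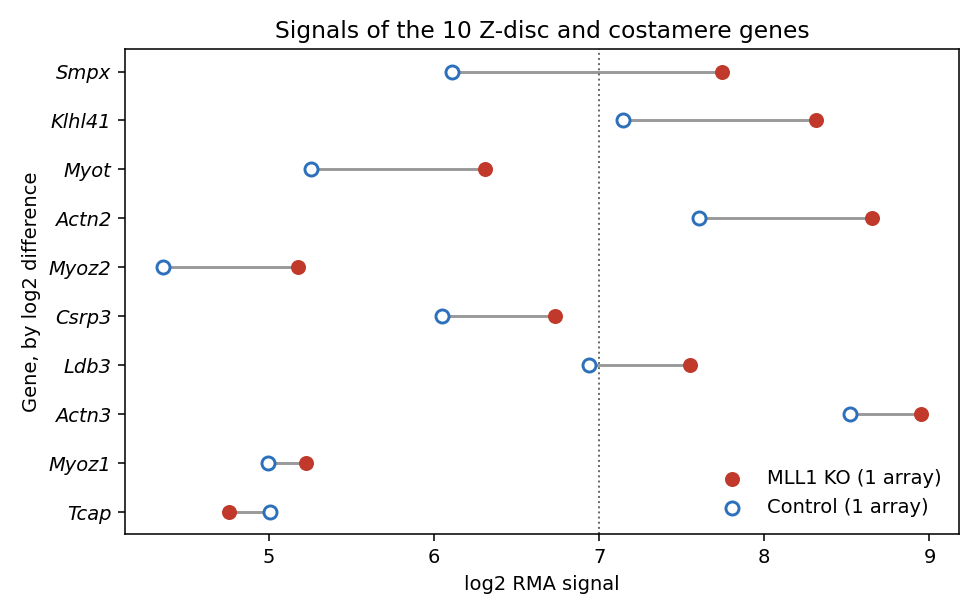
Log2 RMA signal of each member (x axis) in the MLL1 KO array (filled points) and the control array (open points), 1 array each, with genes ordered by their difference and the dotted line at a signal of 7. The MLL1 KO point lies to the right of the control point for 9 of the 10 genes, by 1.63 for Smpx and by 0.23 for Myoz1, and to the left of it for Tcap.

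Upstream sequences of the members that passed the cut-off are shown because these genes carry the largest differences. Muscle genes are commonly controlled near the start by E-boxes, of which MYOD and myogenin bind some forms, and by sites of the MEF2 factors. RefSeq sequences of GRCm38.p6 were found for 6 of the 10 members, with 8 transcription starts among them, and the sequence of Myot is not shown. Each line below gives the 250 bases before the start, 5′ to 3′ on the strand of the gene, and capitals mark matches to the E-box CANNTG and to the MEF2 site.
Smpx, chrX:157698723-157698972, plus strand: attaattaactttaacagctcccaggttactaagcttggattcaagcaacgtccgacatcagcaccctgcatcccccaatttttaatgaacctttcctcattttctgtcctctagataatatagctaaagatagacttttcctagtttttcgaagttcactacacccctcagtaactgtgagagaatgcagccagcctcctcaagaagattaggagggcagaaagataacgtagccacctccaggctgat
Klhl41, chr2:69669870-69670119, plus strand: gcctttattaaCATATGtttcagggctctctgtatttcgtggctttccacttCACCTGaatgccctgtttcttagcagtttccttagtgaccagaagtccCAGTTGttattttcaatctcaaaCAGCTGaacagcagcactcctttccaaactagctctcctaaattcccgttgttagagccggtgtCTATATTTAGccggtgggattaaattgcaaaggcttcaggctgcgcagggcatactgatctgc
Actn2, chr13:12340733-12340982, minus strand: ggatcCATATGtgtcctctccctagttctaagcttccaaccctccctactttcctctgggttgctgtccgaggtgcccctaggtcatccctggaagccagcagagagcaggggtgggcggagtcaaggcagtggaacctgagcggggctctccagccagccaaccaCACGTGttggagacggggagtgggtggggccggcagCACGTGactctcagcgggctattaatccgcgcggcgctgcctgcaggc
The sequence before Klhl41 held 4 E-boxes, of which the one whose first base lies at -127 from the start has the form CAGCTG, and 1 MEF2 site, CTATATTTAG, at -63. Before Actn2 there were 3 E-boxes, CATATG at -245 and CACGTG at -84 and -48, and neither a CAGCTG nor a MEF2 site. The 250 bases before Smpx, the member with the largest difference, held no match to these motifs. Of the members that did not pass, Myoz2 had 2 E-boxes, one of them CAGCTG at -12, and a MEF2 site at -33. Both starts of Csrp3 had 4 E-boxes, and neither Ldb3 start searched had any. Both Ldb3 starts lie inside the RefSeq span of the gene, so the bases before its outermost start were not searched. The CAGCTG of Myoz2 also lies within the RefSeq span of its gene, as do the 250 bases before the inner start of Csrp3. Motifs were searched on both strands, the CAGCTG form is contained in the count of CANNTG, and a match is only a match of letters. Over the 32851 RefSeq upstream sequences of the same length, 66.2% held CANNTG, 13% held CAGCTG and 2.92% held the MEF2 site.

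The α-actinins form the backbone of the Z-disc. Actn2, which encodes the α-actinin of all skeletal fibres and of the heart, had a log2 signal of 8.65 in the MLL1 KO array and 7.60 in the control array. The difference of 1.05 makes it 2.07-fold higher, the smallest difference among the members over the cut-off, and 1.05% of the named probe sets had a difference as high or higher. Its difference was 0.99 when the trend of the difference on signal was removed, 0.96 after renewed quantile normalization and 0.94 with 32 added to the linear signals, each just under the cut-off. Actn3, the paralog of fast fibres, had the signals 8.95 and 8.52 in the MLL1 KO and control arrays and was 1.35-fold higher, and 8.61% of the named probe sets had a difference as high or higher. The non-muscle paralogs, Actn1 and Actn4, differed little and the other way, with log2 differences of -0.20 and -0.08. Both sarcomeric α-actinins were thus higher and both non-muscle ones lower, under each of the scalings tried. The difference between the paralogs was not tested.

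Several members bind α-actinin and, through it, actin filaments or signalling proteins. Myot, which encodes the actin cross-linker myotilin, had a log2 signal of 6.31 in the MLL1 KO array and 5.25 in the control array and was 2.08-fold higher. Its relatives with the same kind of immunoglobulin domains, Mypn (myopalladin) and Palld (palladin), were 1.68-fold and 1.61-fold higher. Myotilin's gene was at a signal under 7 in both arrays, and its log2 difference was 0.67 when 32 was added to the linear signals, a setting that damps differences of dim probe sets.

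Myoz2 and Myoz1 encode myozenins (also called calsarcins or FATZ proteins), which hold the phosphatase calcineurin at the Z-disc. Myoz2, the form of slow fibres and heart, had log2 signals of 5.18 in the MLL1 KO array and 4.36 in the control array and was 1.77-fold higher. Its log2 difference of 0.82 became 1.02 with the trend on signal removed and 0.38 with the added offset, so whether this dim probe set passes depends on the processing. Myoz1, the form of fast fibres, had signals of 5.22 in the MLL1 KO array and 5.00 in the control array and was 1.17-fold higher, and 18.7% of named probe sets had a difference as high or higher. Myoz3, the remaining myozenin gene, was 1.36-fold lower, with signals of 5.43 and 5.87 in the MLL1 KO and control arrays. The family thus ran in both directions, at signals below 7 in both arrays for all of its genes.

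Ldb3, which encodes the PDZ and LIM domain protein ZASP (also called cypher) that binds α-actinin and the myozenins, had log2 signals of 7.55 in the MLL1 KO array and 6.94 in the control array. It was 1.53-fold higher, a difference reached by 4.46% of named probe sets. Among the related PDZ and LIM genes, Pdlim3 was 1.75-fold higher, Pdlim7, Pdlim4, Pdlim1 and Pdlim2 were 1.35-fold, 1.35-fold, 1.29-fold and 1.23-fold higher, and Pdlim5 was 1.04-fold lower. None of these passed the cut-off.

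At the end of titin, 2 members have been described as parts of a stretch-sensing complex. Csrp3, which encodes the muscle LIM protein, had a log2 signal of 6.73 in the MLL1 KO array and 6.05 in the control array and was 1.60-fold higher. Its paralogs of other tissues, Csrp1 and Csrp2, were 1.29-fold and 1.11-fold lower. Tcap, which encodes telethonin, the cap over the ends of paired titin molecules, had a signal of 4.76 in the MLL1 KO array and 5.00 in the control array. It was the only member that was lower, at 1.18-fold, with a rank of 16564 from the top of the 21789 named probe sets. Tcap, Myoz1 and Myoz2 were the 3 members with signals below 5.3 in both arrays.

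Smpx and Klhl41 had the largest differences of the 10. Smpx, an X-linked gene for a small protein of striated muscle found near costameres, had a log2 signal of 7.74 in the MLL1 KO array and 6.11 in the control array. It was 3.10-fold higher, ranked 39 from the top among the 21789 named probe sets and was the only member over 3-fold. The genes nearest to Smpx in difference were Tmem182, Aebp1, Serpinb2, Phyhd1 and Trib2, with log2 differences between 1.59 and 1.63. Only genes that exceeded a signal of 7 in at least 1 of these 2 arrays were compared. Aebp1, Phyhd1 and Trib2 did so only in the MLL1 KO array, with control signals of 6.78, 6.72 and 6.67. The limit itself thus favours genes that are higher there, and nothing is read from this choice of genes. Klhl41, whose Kelch protein serves as an adaptor of the ubiquitin ligase subunit cullin 3 and stabilises thin filament proteins, had signals of 8.31 and 7.14 in the MLL1 KO and control arrays. It was 2.25-fold higher, with a rank of 148. Of the members over the cut-off, Smpx and Klhl41 also stayed above it under every change of scale that was tried, with lowest log2 differences of 1.28 and 1.01.

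**Figure D2:**
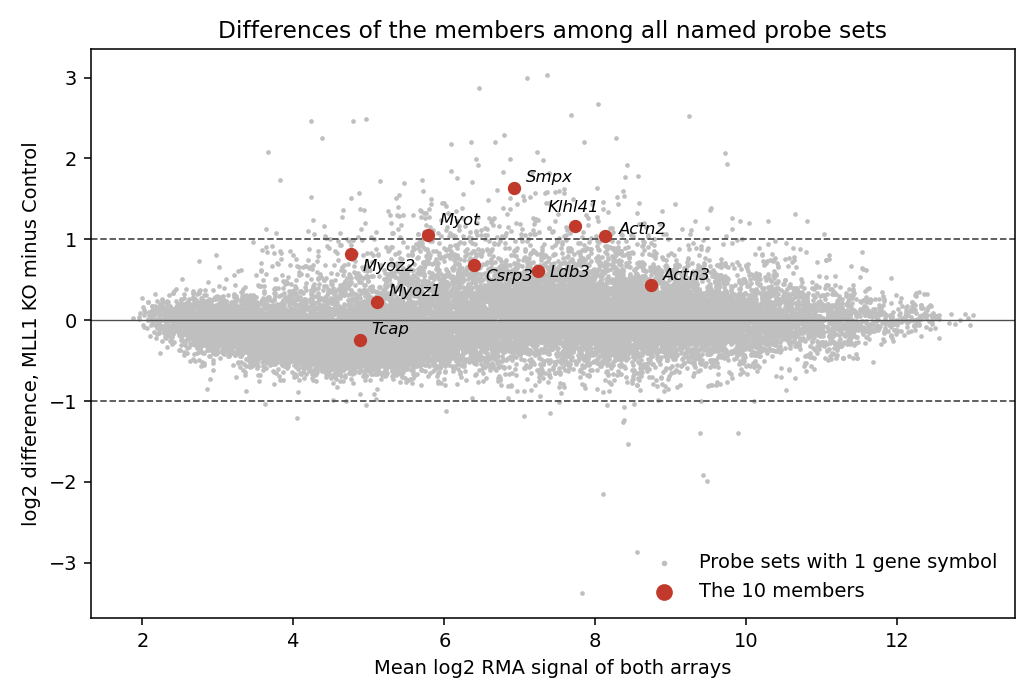
Log2 difference, MLL1 KO minus control (y axis), against the mean log2 signal of both arrays (x axis) for the 21789 probe sets with 1 gene symbol (grey) and the 10 members (red), with dashed lines at 2-fold. Smpx, Klhl41, Myot and Actn2 lie above the upper line, at mean signals of 6.93, 7.73, 5.78 and 8.13.

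How common such a difference is depended on the signal. Among named probe sets with a mean signal from 6 to under 7, where Smpx and Csrp3 lie, 3.16% were over 2-fold higher, the largest share of the ranges that hold a member. The share was 2.21% from 7 to under 8, where Klhl41 and Ldb3 lie, and 1.47% from 8 to under 9, where Actn2 and Actn3 lie. It was 1.64% from 5 to under 6, the range of Myot and Myoz1, and 0.669% from 4 to under 5, the range of Myoz2 and Tcap. A run of 6613 probe sets with the lowest numbers, taken here as control probe sets although no file names them so, passed more often, since among them the share past 2-fold was 9.04% upwards and 0.741% downwards. Their share over 2-fold higher was 13.4% at mean signals from 4 to under 5, 12.7% from 5 to under 6 and 10.2% from 6 to under 7, then 5.43% from 7 to under 8 and 2.44% from 8 to under 9. What these probe sets share with those of the members was not tested. Kmt2a, the gene of MLL1, had log2 signals of 9.66 in the MLL1 KO array and 9.44 in the control array, and as its probe set is not limited to the deleted part, this checks nothing about the deletion.

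Other genes of the same structures were listed by their known place in the cell. Of 35 other Z-disc genes, 2 exceeded 2-fold, both upwards, beside 1.16% of all genes with 1 symbol upwards and 0.11% downwards. They were Sorbs2, which encodes an adaptor of actin-binding proteins, at 2.94-fold with log2 signals of 7.03 in the MLL1 KO array and 5.47 in the control array, and Fhl1, a LIM-only protein of muscle, at 2.91-fold with 7.81 and 6.27 in the MLL1 KO and control arrays. The MLL1 KO array had the higher signal for 23 of the 35 and the lower for 12, beside 41.6% of all genes higher, and the list had a median log2 difference of 0.19. Cryab, the small heat shock protein αB-crystallin, lay at the cut-off, with a log2 difference just under 1.00, and it passed only when the arrays were centred, when 3 of the 35 did. The other chaperone genes of the list, Bag3 and Hspb8, were 1.58-fold and 1.51-fold higher. The largest differences the other way were those of Myoz3 and of Csrp1, at -0.44 and -0.37. Des, which encodes the intermediate filament desmin around the Z-disc, had strong signals of 11.49 and 11.58 in the MLL1 KO and control arrays and differed by -0.10.

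The other costamere genes mostly lay closer to 0. Higher signals in the MLL1 KO array were found for 12 of 21 measured and lower ones for 9, beside 41.6% of all genes higher. The median log2 difference was 0.04. Upwards, 2 exceeded 2-fold, and none did downwards, beside 1.16% and 0.11% of all genes. Cavin4, a muscle protein of caveolae, was 2.07-fold higher, and Pgm5, which encodes aciculin, a protein of muscle adhesion sites, was 2.06-fold higher. Neither passed after renewed quantile normalization or with the offset of 32, when the count was 0. Widely expressed adhesion genes lay on either side of no difference. Log2 differences were -0.09 for Vcl (vinculin), -0.21 for Tln1 (talin 1) and -0.07 for Ilk (integrin-linked kinase). They were 0.34 for Pxn (paxillin), 0.25 for Parva (α-parvin) and 0.16 for Zyx (zyxin). The lowest values were those of the laminin-binding integrin gene Itga7 and of Fermt2 (kindlin 2), both at -0.39.

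Genes of muscle Kelch proteins and ubiquitin ligases mostly differed the other way from Klhl41. Of 10, only Trim55 was higher, at 1.51-fold, and the other 9 were lower by less than 2-fold, beside 41.6% of all genes higher. The median log2 difference was -0.19, beside -0.05 over all genes with 1 symbol. With the trend on signal removed, 3 of them were higher and 7 lower. Klhl40, the closest relative of Klhl41, was 1.21-fold lower at the weak signals of 5.41 and 5.69 in the MLL1 KO and control arrays, and Klhl31 was 1.19-fold lower. Cul3, the ligase subunit itself, had signals of 10.47 in the MLL1 KO array and 10.68 in the control array, a difference of -0.21. Among 10 genes of calcineurin signalling, 5 were higher and 5 were lower, beside 41.6% of all genes higher, and none passed. The median of 0.01 turned to -0.0053 with the trend removed and to -0.059 after quantile normalization. Its members with the largest differences were Rcan2 and Rcan1, which encode inhibitors of calcineurin, at 1.74-fold and 1.49-fold higher, and on the other side Nfatc4 and the catalytic subunit gene Ppp3ca, at -0.26 and -0.19.

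**Figure D3:**
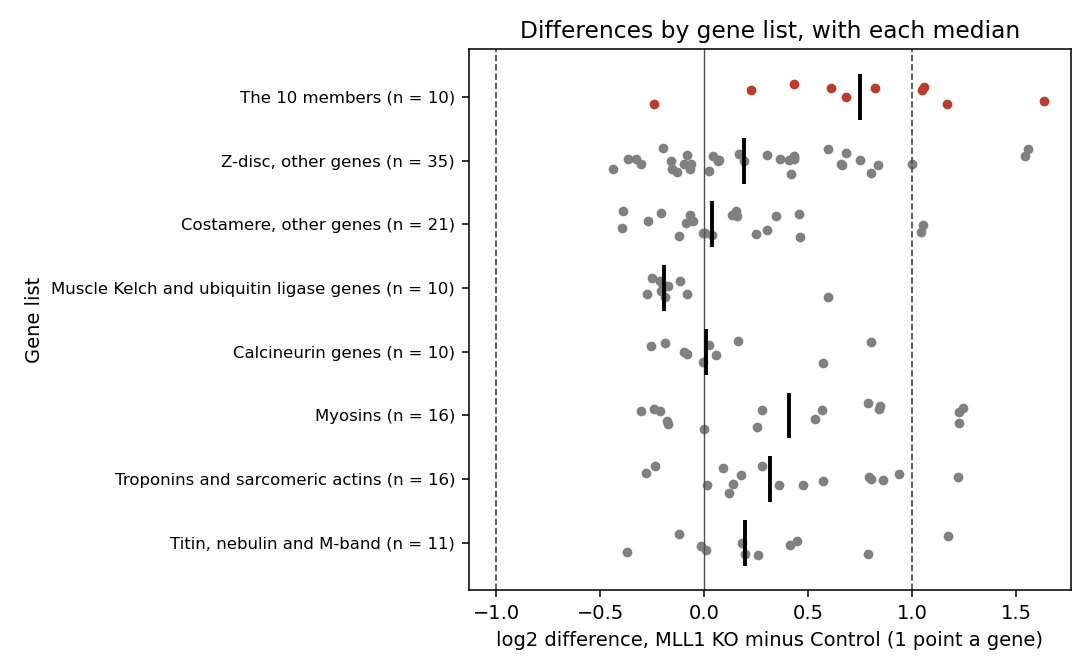
Log2 difference, MLL1 KO minus control (x axis), of each gene (1 point, the mean of its probe sets) in 8 gene lists (y axis), with the median of each list as a black bar and dashed lines at 2-fold. The medians are 0.75 for the members, 0.19 for other Z-disc genes, 0.04 for other costamere genes and -0.19 for the Kelch and ligase genes.

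Genes of the nearest parts of the sarcomere were also mostly higher. As the members were selected on this difference, their median of 0.75 is not ranked against those of the other lists. The median log2 difference was 0.41 for 16 myosin genes, 0.32 for 16 genes of troponins, actins and their regulators, and 0.20 for 11 genes of titin, nebulin, the M-band and myosin-binding proteins. In that order, 10, 14 and 8 genes were higher and 5, 2 and 3 were lower, beside 41.6% of all genes higher. Myh2 did not differ. Over 2-fold higher were 3 of the myosin genes, namely Myh1, Myl1 and Myl6b, then Tnni1, the slow troponin I, and Mybph, beside 1.16% of all genes upwards and 0.11% downwards. None of these lists had a gene over 2-fold lower. Below the cut-off, the largest upward difference among the troponins and actins was that of Acta1 (skeletal α-actin), at 1.91-fold. Among the myosins it was that of Mylpf, at 1.80-fold, and in the titin and nebulin list that of Myom2, of the M-band, at 1.73-fold. The largest differences the other way were -0.30 for Myh7b and -0.24 for Myl3 among the myosins, -0.28 for Tnni2 and -0.24 for Tpm2 among the troponins and tropomyosins, and -0.37 for Mybpc2 and -0.12 for Obsl1. Of the fibre type lists, fast genes had a median of 0.33 and slow genes of 0.13, with 6 of 10 higher in each, beside 41.6% of all genes, though after quantile normalization 7 of the fast genes and 5 of the slow ones were higher. Past 2-fold, the slow list had 2 genes, Tnni1 and Casq2 (cardiac and slow calsequestrin), the second at 2.28-fold. The fast list had 1, Myh1, while its next largest, Mylpf, was 1.80-fold higher. With 32 added to the linear signals, Casq2 fell to a log2 difference of 0.97, and each list had 1 gene past 2-fold. Fast-fibre Actn3 and Myoz1 had smaller differences than their paralogs Actn2, of all fibres, and Myoz2, of slow fibres and heart. These orders rest on 1 array per condition and were not tested.

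Markers of other cell types mostly gave weak signals. All 7 endothelial markers were at or below a signal of 7 in both arrays, as were 5 of 6 immune, 7 of 9 fibroblast, 7 of 10 smooth muscle and 7 of 10 cardiomyocyte markers. The summed linear signal of the cardiomyocyte list was 2852 in the MLL1 KO array and 1863 in the control array, mostly from Myl4, which embryonic skeletal muscle also expresses. Its defining members Myh6, Nppa and Tnni3 had signals between 4.87 and 5.67 in the MLL1 KO array and between 4.89 and 5.56 in the control array. Its factor genes Gata4 and Nkx2-5 were brighter, Gata4 at 7.30 and 7.39 and Nkx2-5 at 6.50 and 7.08 in the MLL1 KO and control arrays, a log2 difference of -0.59 for Nkx2-5. The smooth muscle sums were 5951 and 6110 in the MLL1 KO and control arrays, mostly from Acta2 and from Des, which myoblasts express too. The fibroblast sums were 625 in the MLL1 KO array and 654 in the control array, over 9 of 10 listed markers. The marker left out is Ly6a (SCA1), which was not analysed here and which the paper lists among its upregulated genes. The sums and counts of fibroblast markers therefore lack a gene reported as higher. Over 2-fold higher were Cd34 among the fibroblast markers and Cd68 among the immune ones, at 2.40-fold and 2.62-fold. Of the 9 fibroblast markers 2 were higher and 7 lower, beside 41.6% of all genes higher. The paper also used CD34 to select satellite cells in its sorting. The endothelial sums were 160 in the MLL1 KO array and 186 in the control array. The immune sums were 264 in the MLL1 KO array and 172 in the control array. Only Cd68 was higher among the immune markers, and the other 5 measured were lower. Of the tenocyte markers 2 of 6 exceeded a signal of 7, among them Scx, 1.59-fold higher, of the adipocyte markers 1 of 5 did, Pparg, and of 3 Schwann cell markers none did. The 10 myoblast markers all exceeded a signal of 7 in the higher array, with 3 higher and 7 lower, beside 41.6% of all genes higher. Of these, only Myf5 exceeded 2-fold, downwards, with signals of 6.14 in the MLL1 KO array and 9.51 in the control array. Among the regulators of myogenesis, those over 2-fold higher were Mef2c, at 2.71-fold, and the myomaker gene Mymk, needed for fusion, at 2.21-fold. Myog (myogenin) was 1.56-fold higher and Myf6 was 1.26-fold lower. The paper, which also measured myogenin by RT-qPCR in repeated experiments, reports its mRNA as unchanged. The part of these markers and regulators in the values of the members was not tested.

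**Figure D4:**
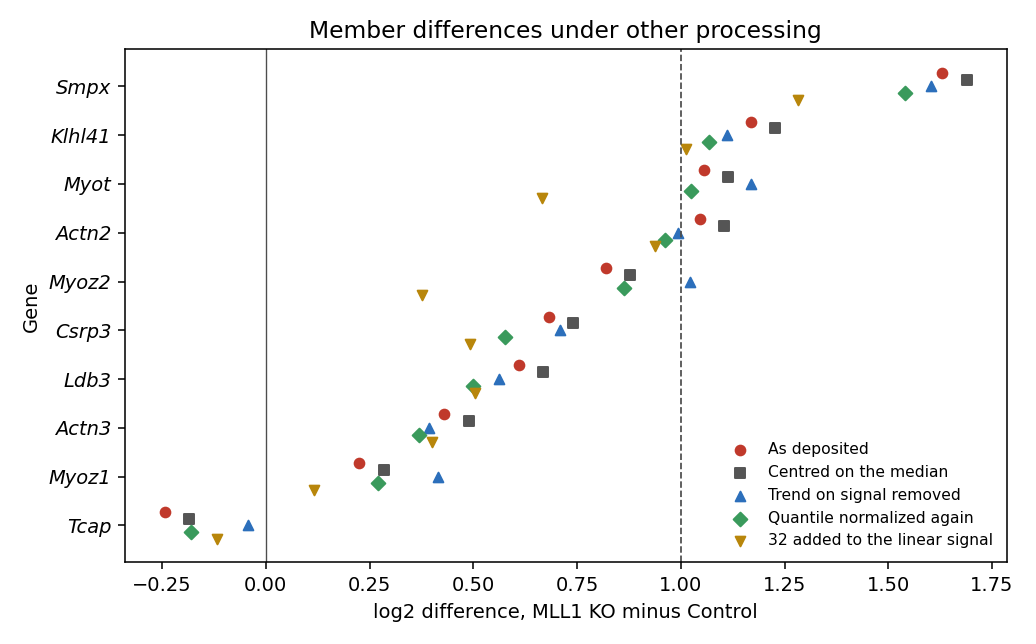
Log2 difference of each member, MLL1 KO minus control (x axis), as deposited and under 4 other scalings (symbols), with the dashed line at 2-fold. Smpx and Klhl41 stay to the right of the line under all of them, Actn2 lies on either side of it, from 0.94 to 1.10, and Tcap stays left of 0, from -0.24 to -0.04.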

How the data were processed

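RNA of myoblasts treated with 4-OHT (MLL1 KO) or ethanol (control) was hybridised to Affymetrix MoGene 1.0 ST arrays. RMA in Bioconductor, of a version not given in the sources used here, was applied by the authors, who deposited log2 signals of 35557 probe sets. The 6613 lowest probe set numbers, an unbroken run, were taken as control probe sets, which no file states. Gene symbols came from the platform annotation, and of the other 28944 probe sets 21789 had 1 symbol, 1621 several and 5534 none. Differences are MLL1 KO minus control, folds are these on the linear scale, and genes with several probe sets are given by their mean. The 10 members and all lists were chosen with earlier results of these data known. Every member was named, as were in the other lists of muscle genes those over 2-fold and the 2 largest differences each way. Marker lists are given by counts, sums and genes over 2-fold. Single other markers, paralogs of members, chaperones, adhesion genes, desmin and myogenin were named after their values were seen. With 1 array per condition no test was possible, and other scalings, cut-offs and signal limits were tried instead. Protein identity of paralogs was not analysed here. Symbols of all 10 members matched RefSeq by gene number. The code was tested on simulated data. Python 3.11.15, numpy 2.4.6, pandas 2.3.3, statsmodels 0.14.6 and matplotlib 3.10.9 were used.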

Additional observations from a re-analysis of the deposited data

How the results depend on the processing

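The direction of all 10 members kept its side of 0 under centring, removal of a lowess trend on signal (span 0.3) and renewed quantile normalization. An offset of 32 on the linear scale changes sizes but cannot turn a direction. Use of the brightest probe set could change nothing here, as each member has 1 probe set. The count of members over 2-fold higher was 4 with centring and 4 with the trend removed, when Myoz2 passed in place of Actn2, beside 1.41% and 1.34% of all genes. It was 3 after quantile normalization, beside 0.958%, 2 with the offset, beside 0.481%, and 3 with a signal over 7, beside 1.68% of named probe sets. Smpx is among these last 3 and passed the limit only in the MLL1 KO array, so nothing is read from that count. The count was 7 at 1.5-fold and 1 at 3-fold, where 4.85% and 0.207% of named probe sets were higher, and no member was lower at either. The median log2 difference of 0.75 became 0.85 with the trend removed, 0.50 with the offset and 1.05 for the 5 members with a signal over 7, a limit that Smpx and Ldb3 passed only in the MLL1 KO array, where they are higher, so this value is favoured by the limit itself. The median of the calcineurin list turned to -0.0053 with the trend removed and to -0.059 after quantile normalization. No paired analysis was possible because each condition has 1 array, and for the same reason no array could be left out. Signals of Myot, Csrp3, Myoz1, Myoz2 and Tcap did not exceed 7 in either array, which limits what can be read from them.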

Other observations

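Myo18b, which encodes an unconventional myosin of the Z-disc region, was represented by 20 probe sets with its symbol alone. Their log2 differences, MLL1 KO minus control, lay between -0.67 and -0.03, with a median of -0.32. Of these, 20 of 20 were lower, beside 56% of named probe sets. They belong to 1 gene on the same 2 arrays and are not repeats. The gene's mean signals were weak, at 5.47 and 5.80 in the MLL1 KO and control arrays. Its mean difference of -0.33 became -0.195 with the trend on signal removed. Tpm3, a tropomyosin gene with 4 probe sets, had differences between -0.01 and 0.04, whereas the 2 probe sets of Tmod1, which caps thin filaments, had differences of -0.19 and 0.47. Each of the 10 members has only 1 probe set, so no such range can be given for them. Upstream sequences of the members varied in base composition, with a GC content of 63.2% before Actn2, 45.2% before Klhl41 and 42.8% before Smpx, beside a median of 52.4% over all RefSeq upstream sequences of this length.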
